A study of Arabidopsis thaliana with 30 samples.

Results

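The relative use of transcript isoforms was compared between Arabidopsis seedlings after 48 h of light (48 h SL) and germinating seeds after 12 h of light (12 h SL). A gene entered the comparison if at least 2 of its isoforms were listed in the deposited transcript table and if the TPM (transcript abundance scaled for transcript length and library size) of its isoforms, summed, averaged at least 1 at both time points. These conditions were met by 7249 of the 8539 genes with 2 or more listed isoforms, out of 19576 genes listed in all, and the 7249 genes carried 21663 isoforms. For each isoform and library the share was its TPM as a percentage of the summed TPM of its gene. The study followed germination by RNA-seq at 10 time points with 3 libraries each, and the 6 libraries of 48 h SL and 12 h SL were used here. All came from wild-type plants of the ecotype Col0, and their seeds had been sown on MS media and kept for 48 h in the cold and dark (stratification) before the transfer to continuous light. The 48 h SL samples, collected after 48 h of light, are labelled seedling, and the 12 h SL samples, collected after 12 h of light, are labelled germinating seed. According to the methods of the study the replicates were biological, with the seeds from a single batch of plants, so the spread between them does not cover seed batches.

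An isoform is one of several mature transcripts of a gene, which differ in where transcription starts, which introns are removed and where the transcript is cleaved and polyadenylated. In plants the most common form of alternative splicing is intron retention, in which an intron that other isoforms lack stays in the mature transcript. A kept intron can add in-frame codons, or it can bring a stop codon that shortens the protein and may expose the transcript to nonsense-mediated decay, the pathway that degrades transcripts with early stop codons. Light and the clock are known to alter splicing in seedlings, and splicing factors regulate the splicing of their own transcripts.

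The labels were checked against marker genes in the gene counts. The summed level of 8 green tissue markers was 8930 to 10700 CPM (counts scaled to library size) at 48 h SL and 806 to 1250 CPM at 12 h SL. For 10 seed storage markers the sums were 502 to 539 CPM at 48 h SL and 2450 to 5050 CPM at 12 h SL, and for 4 root hair markers 1170 to 1460 CPM and 6.22 to 26.2 CPM at the same time points. Whole seedlings and whole seeds were extracted, so a change of isoform use within cells cannot be told apart from a change in the mixture of cell types. The 48 h SL libraries held 66517075 to 76294780 reads counted to genes, while replicates 1 and 2 of 12 h SL held 35787129 and 43261026 and replicate 3 held 12038278. That library stood apart. Its 10 most abundant genes took 19.3% of its reads, against 4.81% to 5.18% in the other 5 libraries, and the SD of its log-ratio deviations was 0.577, against 0.321 to 0.329 in the 48 h SL libraries and 0.435 and 0.442 in the other 12 h SL libraries.

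Of 16849 isoforms with a mean share between 5% and 95% over the 6 libraries, 2324 (13.8%) changed at an adjusted p below 0.01, 1047 of them (6.21%) with a higher share at 48 h SL and 1277 (7.58%) with a lower one. The test was the limma moderated test on the log2 ratio of the isoform's TPM to that of the rest of its gene, with 0.1 TPM added to each. The called isoforms belonged to 1337 of 6433 genes tested (20.8%). For 1084 genes (16.9%) a called isoform moved by at least 10 percentage points, and for 645 by at least 20. The median absolute change was 18.0 points among called isoforms and 6.46 points among those tested. The 3 libraries of one time point all lay above the 3 of the other for 45.6% of the isoforms tested and 99.9% of those called. The isoform with the highest mean share differed between the time points in 992 of the 7249 genes (13.7%). In 314 of these switches the isoform leading at either time point was called (4.88% of genes tested). In 207 of the 314 the new leading isoform was above the old one in all 3 libraries of 48 h SL. In these 207 it was also below the old one in all 3 libraries of 12 h SL. Other isoforms of the gene were not compared in this count. With 12 h SL replicate 3 left out, 1659 genes were called and 449 of them switched. In the other fits to 5 libraries, the genes called numbered 442, 378 and 430 without replicates 1, 2 and 3 of 48 h SL, and 648 and 917 without replicates 1 and 2 of 12 h SL.

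**Figure D1:**
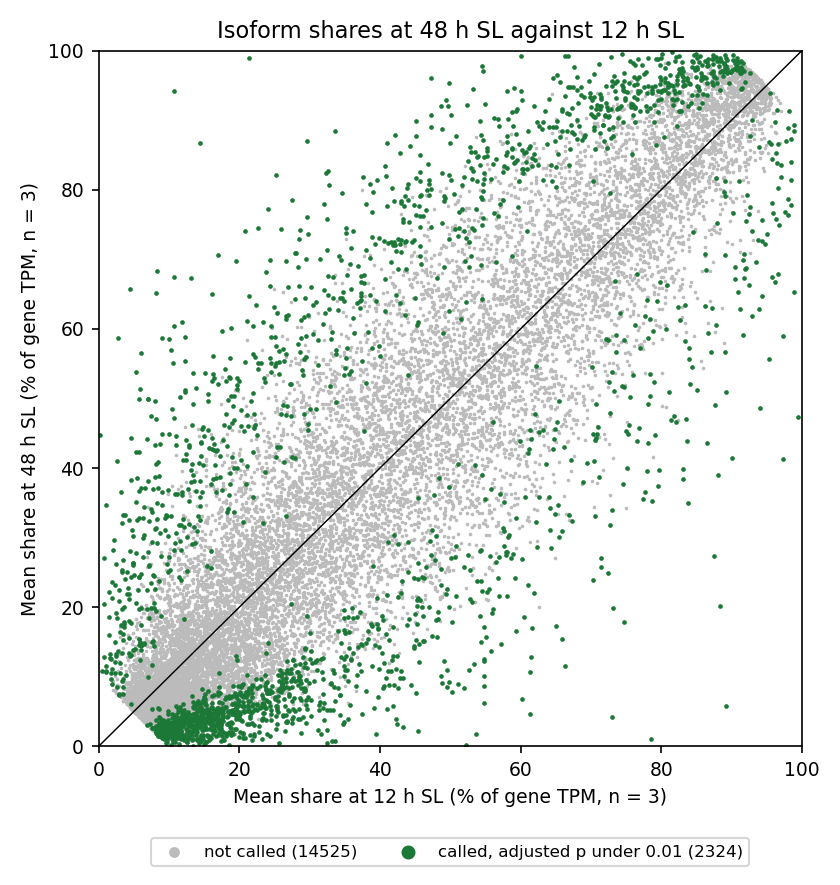
Mean share of each tested isoform at 48 h SL (vertical axis) and at 12 h SL (horizontal axis), in percent of the gene's TPM over 3 libraries each. Green points are the 2324 isoforms called with limma and grey points the others, and the diagonal marks an equal share. Called isoforms lie on both sides of the diagonal, with a dense group of minor isoforms whose share was lower at 48 h SL.

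Isoform use was set beside the total level of the genes. Of 23222 genes tested at the gene level 68.6% changed, 8707 being higher (37.5%) and 7234 lower (31.2%) at 48 h SL (edgeR quasi-likelihood test, adjusted p below 0.01, with a median log2 fold change of all genes of 0.14). Among the genes tested for both, isoform use was called in 707 of 1943 genes that were higher at 48 h SL (36.4%), 211 of 2129 that were lower (9.91%) and 408 of 2326 whose level was not called (17.5%), and the difference between these shares was not tested. The balance of directions differed with the level. In genes under 5 TPM at either time point 498 isoforms rose and 739 fell, while in genes with 10 TPM or more at both the numbers were 344 and 348. An estimated share of a gene with few reads is less certain, and its part in these counts was not tested. With at least 100 estimated counts of the gene in every library, 1306 genes were called, through 2273 of 15651 isoforms tested. The estimated counts are divided by a library size factor, so 100 does not stand for the same number of reads in every library. Of the 6433 genes tested, 4212 overlapped no other gene, and 841 of those were called.

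The 10 largest changes were taken from called isoforms whose libraries did not overlap, in genes of at least 10 TPM at both time points. The absence of overlap in these 10 was thus set by the choice. The largest was that of AT1G79520 (chr1:29911381-29914967), annotated as a cation efflux family protein. Isoform AT1G79520.1 made up 18.2%, 19.4% and 23.2% of the gene's TPM in the 48 h SL libraries and 91.5%, 91.6% and 82.0% in the 12 h SL libraries. The groups were far apart, and the loss was taken up by AT1G79520.2, with 65.7% ± 2.03 at 48 h SL and 4.46% ± 5.11 at 12 h SL (SD, n = 3 each). The log2 ratio of AT1G79520.1 to the rest fell by 4.84 (SE 0.37, adjusted p = 0.000216). The falling isoform is a transcript of 2649 bases and the rising one of 1463 bases, and their coding sequences are 1209 and 1245 bases long.

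For AGO1 (chr1:17885633-17892632), the Argonaute protein that cuts the targets of plant microRNAs, isoform AT1G48410.3 had shares of 52.2%, 61.8% and 62.5% at 48 h SL and 5.27%, 11.0% and 20.5% at 12 h SL. All 48 h SL libraries lay above all 12 h SL libraries, and AT1G48410.1 gave way with a mean of 39.8% at 48 h SL against 79.7% at 12 h SL. The log2 ratio of AT1G48410.3 rose by 3.50 (SE 0.48, adjusted p = 0.0018), with no call at the gene level (log2 fold change -0.05, SE 0.15, edgeR adjusted p = 0.774). The call was lost without 48 h SL replicate 2 or 3 (adjusted p 0.0113 and 0.0103). The coding sequences of AT1G48410.3 and AT1G48410.1 have 3153 and 3147 bases.

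PRIN2 (chr1:3469512-3471488), a plastid protein needed for transcription by the plastid-encoded RNA polymerase, had 1 dominant isoform in the seed and a mixture in the seedling. AT1G10522.1 had shares of 55.4%, 36.1% and 32.2% at 48 h SL and 99.1%, 97.6% and 95.1% at 12 h SL, with no overlap (log2 ratio change -5.90, SE 0.58, adjusted p = 0.000442). Both isoforms have a coding sequence of 540 bases. Other annotated genes cover 25.3% of the span of PRIN2, and in unstranded libraries reads from overlapping genes cannot be told apart.

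AT4G20980 (chr4:11216881-11219638) encodes a subunit of the translation initiation factor eIF3. Isoform AT4G20980.1 had shares of 6.48%, 2.45% and 4.87% at 48 h SL and 79.0%, 76.5% and 28.7% at 12 h SL. The low value at 12 h SL was that of replicate 3, and the groups did not overlap with it (log2 ratio change -5.18, adjusted p = 0.00257) or without it (-6.21, adjusted p = 0.000114). The 3 main isoforms share a coding length of 1776 bases. The call was lost without 12 h SL replicate 1 and without each 48 h SL replicate, at adjusted p-values of 0.0103 to 0.0145.

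SOX (chr3:314693-317431), the peroxisomal sulfite oxidase, moved toward its longest form. AT3G01910.1, with 12 exons and 1182 coding bases, had shares of 85.7%, 84.8% and 89.6% at 48 h SL and 33.7%, 37.6% and 51.6% at 12 h SL (log2 ratio change 3.24, SE 0.32, adjusted p = 0.000448). Its shorter isoforms, of 8 exons each with 897 and 726 coding bases, had mean shares of 9.34% and 3.97% at 48 h SL, against 30.6% and 28.4% at 12 h SL, and both fell. The total level of SOX rose as well, with 57.0 ± 3.07 TPM at 48 h SL and 19.2 ± 2.77 TPM at 12 h SL (SD, n = 3 each).

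The other 5 of the 10 largest changes also had no overlap between the libraries of the time points, as their choice required. AT1G03250.1, of an R3H domain protein, had a mean share of 77.3% at 48 h SL against 24.0% at 12 h SL. GYRB1, the B subunit of DNA gyrase, which relieves supercoils in organelle DNA, had 60.9% of AT3G10270.1 at 48 h SL against 11.9% at 12 h SL. For the aminotransferase-like gene AT5G27410 the isoform AT5G27410.1 had 60.4% at 48 h SL against 10.7% at 12 h SL, where another gene overlaps 32.8% of the span. HISN5B, an enzyme of histidine biosynthesis, had 8.67% of AT4G14910.3 at 48 h SL against 54.9% at 12 h SL, and AT1G54385.2, of an ARM repeat protein, had 80.7% against 32.8%. Adjusted p-values of these 5 were 0.000126 to 0.00201. The call of AT1G03250.1 was lost when the spread was estimated from all 30 libraries (0.0113). That of AT1G54385.2 held in 16 of 17 fits, with a highest adjusted p of 0.0104. The next gene in this order, Tudor1, had a change of -44.5 points, close to the 45.7 points of SOX.

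The 6 most abundant genes whose leading isoform switched were CAT3, CP29 and 4 ribosomal protein genes, and their changes were smaller. CAT3 (chr1:7142972-7146540) encodes a catalase, an enzyme that breaks down hydrogen peroxide. AT1G20620.5 had shares of 53.3%, 55.5% and 52.9% at 48 h SL and 41.3%, 28.5% and 38% at 12 h SL, while the level of the gene was 683 ± 52.9 TPM at 48 h SL and 44.3 ± 14.5 TPM at 12 h SL. The groups did not overlap (log2 ratio change 1.07, SE 0.21, adjusted p = 0.00669). In CP29 (chr3:19818975-19821519), a chloroplast RNA-binding protein, AT3G53460.2 had shares of 63.5%, 69.4% and 65.8% at 48 h SL and 14.9%, 24.7% and 46.0% at 12 h SL (adjusted p = 0.00663). Replicate 3 of 12 h SL was nearest to the seedlings here.

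Not every library followed these switches. In RP1 the leading isoform AT1G43170.8 was level with AT1G43170.2 at 48 h SL (means of 36.2% and 36.1%), and in replicate 1 it was the lower with 32.5% against 36.4%. The isoform of RP1 with the highest mean share at 12 h SL, AT1G43170.3, was below AT1G43170.2 in replicates 2 and 3 of 12 h SL. In 12 h SL replicate 3 the leading isoforms of BBC1, CP29 and AT5G02870 were those of the seedlings. For CP29 this was AT3G53460.2 with 46.0%, against 39.7% for AT3G53460.4. Among the ribosomal protein genes, AT1G43170.8 of RP1 made up 36.2% ± 3.83 at 48 h SL and 18.5% ± 1.21 at 12 h SL, and AT3G49010.1 of BBC1 made up 21.3% ± 4.52 and 39.6% ± 6.38 at the same time points. AT1G72370.1 of P40 had 46.6% ± 1.95 at 48 h SL and 56.1% ± 1.37 at 12 h SL. For the L4/L1 family gene AT5G02870 the isoform AT5G02870.1 had 39.0% ± 2.14 at 48 h SL and 54.6% ± 7.07 at 12 h SL (SD, n = 3 each). None of the 4 was called at the gene level (edgeR adjusted p 0.0735 to 0.134). All 6 calls were lost when the spread was estimated from all 30 libraries, at an adjusted p of 0.0478 for RP1, 0.0202 for BBC1 and 0.145 to 0.622 for the others. The calls of P40, CP29 and AT5G02870 were also lost without any 1 library other than 12 h SL replicate 3 (adjusted p 0.0126 to 0.0371). That of CAT3 was lost without each 48 h SL replicate (0.0255 to 0.0339), and that of BBC1 without 12 h SL replicate 1 or 2 or 48 h SL replicate 2 or 3 (0.0153 to 0.0184).

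**Figure D2:**
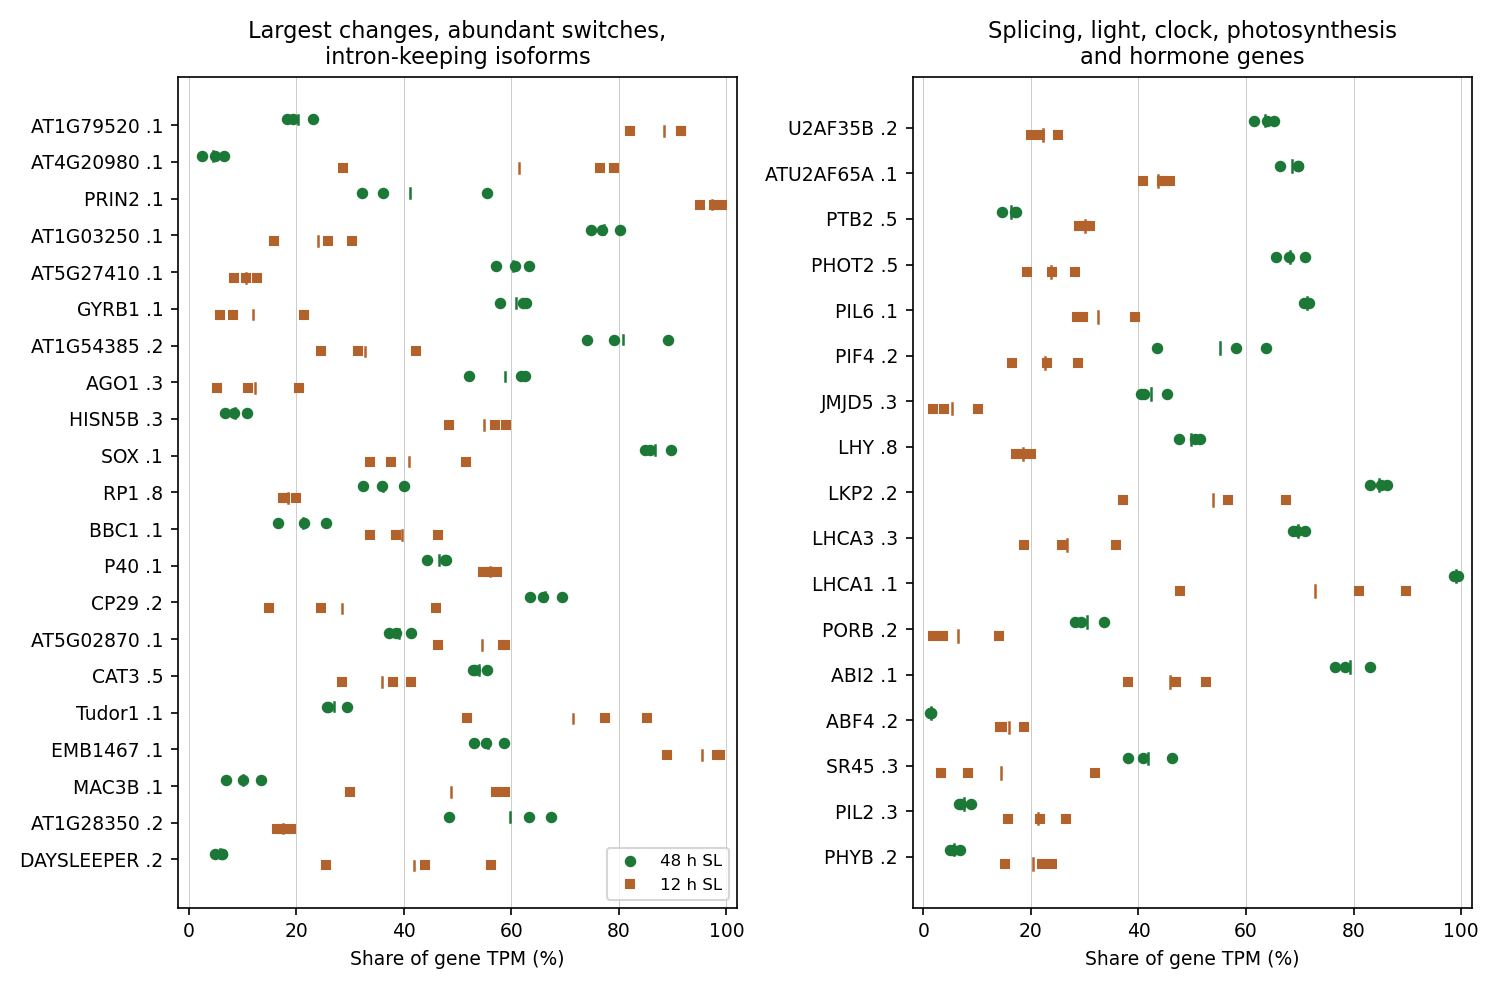
Share of 1 isoform of each named gene in percent of the gene's TPM, with a green circle for each 48 h SL library, a brown square for each 12 h SL library and a short line for the mean of 3. The isoform number follows the gene name. The groups do not overlap in any of the genes drawn, which was a condition of choice for the 10 largest changes. They lie closest in AT5G02870, with a highest share of 41.4% at 48 h SL and a lowest of 46.4% at 12 h SL.

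Splicing factors were one of the lists examined. Of 30 genes listed (SR proteins, U1 and U2AF components, PTB and glycine-rich RNA-binding proteins), 25 were in the comparison, 24 were tested and 3 were called (U2AF35B, ATU2AF65A and PTB2), beside 20.8% of all genes, and the difference was not tested. The median absolute change over the isoforms of the list was 5.36 points, against 6.46 over all isoforms tested. U2AF35B and ATU2AF65A encode the small and the large subunit of U2AF, the factor that marks the 3′ end of introns for the spliceosome.

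In U2AF35B (chr5:17169283-17172787) the isoform AT5G42820.2 had shares of 61.4%, 65.2% and 63.9% at 48 h SL and 21.7%, 20.1% and 25.1% at 12 h SL. It was the minor isoform in every seed library and the major one in every seedling library (log2 ratio change 2.58, SE 0.22, adjusted p = 0.000316). Both isoforms carry the same 852 coding bases and differ outside them. Other annotated genes cover 58.3% of this span, and the gene counts hold 60 to 328 reads per library for the gene itself. The estimated counts behind the shares are another quantity, with lowest values of 806 for AT5G42820.1 and 327 for AT5G42820.2. The isoform estimates at this locus are thus uncertain. ATU2AF65A (chr4:17293938-17297761) overlaps no other gene. AT4G36690.1 had shares of 66.4%, 69.7% and 69.6% at 48 h SL and 44.4%, 40.8% and 45.8% at 12 h SL (log2 ratio change 1.48, SE 0.22, adjusted p = 0.00245), without a call at the gene level. The other isoforms were not called, with means of 17.1% at 48 h SL and 29.5% at 12 h SL for AT4G36690.3 (adjusted p = 0.0113). For AT4G36690.2, which keeps introns, they were 13.9% and 23.7% (adjusted p = 0.0359). In PTB2, a polypyrimidine tract-binding protein that represses splice sites, AT5G53180.5 fell to 16.3% ± 1.51 at 48 h SL, against 30.1% ± 1.04 at 12 h SL (adjusted p = 0.00837). The PTB2 call was lost with all 30 libraries (0.0324) and without any 1 library other than 12 h SL replicate 3 (0.0235 to 0.0442), and that of ATU2AF65A without each 48 h SL replicate (0.012 to 0.017).

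SR45 (chr1:5675495-5678873), an SR-like splicing factor that is an example of the study, was not called. AT1G16610.3 had shares of 38%, 46.2% and 40.9% at 48 h SL and 8.24%, 3.20% and 31.9% at 12 h SL. The groups did not overlap, but replicate 3 of 12 h SL was close to the seedlings (log2 ratio change 2.59, SE 0.76, adjusted p = 0.0335). Without that library the change was 3.58 with an adjusted p of 0.000858.

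Among light signalling genes 6 of 19 tested were called (PHYB, PHOT2, PIF4, PIL6, PIL2 and SPA1), beside 20.8% of all genes, with a median absolute change of 7.65 points beside 6.46 over all isoforms tested. PHYB (chr2:8139756-8144461) encodes phytochrome B, the red light receptor that promotes germination and seedling greening. The intron-keeping isoform AT2G18790.2 had shares of 5.50%, 6.90% and 4.95% at 48 h SL and 24.0%, 22.1% and 15.1% at 12 h SL. Each seedling library was lower than each seed library (log2 ratio change -2.03, SE 0.31, adjusted p = 0.00284), and the call was lost without 12 h SL replicate 1 or any 48 h SL replicate (adjusted p 0.0105 to 0.0176). The level of the gene was 17.7 ± 0.0713 TPM at 48 h SL and 4.82 ± 0.885 TPM at 12 h SL (SD, n = 3 each). Over the time course the mean share of AT2G18790.2 was 4.98% at harvest (H), 78.5% and 84.5% after 12 and 48 h of stratification, 34.8% after 1 h of light, 26.0% after 6 h, 20.4% after 12 h, 7.98% after 24 h and 5.79% after 48 h.

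PHOT2 (chr5:23523825-23533111), a blue light receptor for phototropism and chloroplast movement, shifted to AT5G58140.5, with shares of 65.6%, 67.9% and 70.9% at 48 h SL and 23.9%, 19.3% and 28.2% at 12 h SL. No library was out of place (log2 ratio change 2.59, SE 0.29, adjusted p = 0.000758). This isoform is 3039 bases long, while AT5G58140.1 and AT5G58140.2, which both fell, have 6334 and 6518 bases with the same coding length of 2748 bases. Other annotated genes cover 34.5% of the span, and PHOT2 had 151 to 376 reads in the 12 h SL libraries against 5971 to 7478 at 48 h SL. PIL6 (also called PIF5) and PIF4, transcription factors that phytochrome inactivates in light, each gained in 1 isoform. AT3G59060.1 of PIL6 had 71.3% ± 0.434 at 48 h SL and 32.5% ± 6.00 at 12 h SL (adjusted p = 0.00144), and AT2G43010.2 of PIF4 had 55.1% ± 10.4 and 22.7% ± 6.18 (adjusted p = 0.00868). Reads were few at 12 h SL, 37 to 89 for PIL6 and 34 to 103 for PIF4, and the call of PIF4 was lost without any 1 of the 6 libraries (adjusted p 0.011 to 0.0353). That of PIL6 was lost with all 30 libraries (0.011). PIL2, also known as PIF6, lies wholly within the span of other annotated genes and had 5 to 33 reads per library in the gene counts. Its isoform AT3G62090.3 had 7.48% at 48 h SL against 21.3% at 12 h SL, just inside the threshold (adjusted p = 0.0096). The PIL2 call was lost with all 30 libraries (0.248) and without any 1 library other than 12 h SL replicate 3 (0.0255 to 0.0416).

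Clock genes were called in 4 of 10 tested (JMJD5, LHY, LKP2 and RVE8), beside 20.8% of all genes, with a median absolute change of 5.80 points, below the 6.46 points over all isoforms tested. JMJD5 (chr3:7275645-7278420), a jumonji-domain protein that acts in the clock, had shares of AT3G20810.3 of 41.0%, 45.3% and 40.5% at 48 h SL and 1.73%, 3.91% and 10.1% at 12 h SL. This isoform, the one that splices out the last intron, was minor in all seed libraries and reached the level of AT3G20810.1 in the seedlings (log2 ratio change 3.84, SE 0.51, adjusted p = 0.0015). Without 48 h SL replicate 2 its adjusted p was 0.0103. The gene as a whole fell by 1.28 on the log2 scale (SE 0.18, edgeR adjusted p = 4.54e-07). LHY (chr1:33365-37871), a MYB-like transcription factor of the morning, rose in level and gained in AT1G01060.8, at 49.8% ± 2.06 at 48 h SL and 18.4% ± 1.47 at 12 h SL. It had 54 to 169 reads at 12 h SL, and the adjusted p of 0.00296 became 0.102 with all 30 libraries and 0.0146 to 0.019 without each 48 h SL replicate. LKP2, a blue light receptor of the clock, had 84.8% ± 1.66 of AT2G18915.2 at 48 h SL and 53.8% ± 15.4 at 12 h SL (adjusted p = 0.00803). Its call was lost with all 30 libraries (0.0399), on the arcsine scale (0.0128) and without 12 h SL replicate 1 or any 48 h SL replicate (0.0242 to 0.0347).

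Photosynthesis and Calvin cycle genes were called in 8 of 13 tested (GAPA-2, HCEF1, LHCA1, LHCA3, PORB, PSBQA, RCA and TAPX), beside 20.8% of all genes. All 8 were also higher at the gene level at 48 h SL, where 36.4% of genes were called, and the median absolute change over the isoforms of the list was 9.74 points beside 6.46 over all. LHCA3 (chr1:22699715-22701412) encodes an antenna protein of photosystem I. AT1G61520.2, a transcript of 1 exon with 657 coding bases, had shares of 1.82%, 1.5% and 1.92% at 48 h SL and 40.1%, 43.7% and 34.6% at 12 h SL. AT1G61520.3, with 4 exons and 822 coding bases, had 69.5%, 70.9% and 68.7% at 48 h SL and 25.7%, 18.7% and 35.8% at 12 h SL. The groups did not overlap in either isoform, with a wider spread at 12 h SL (adjusted p = 1.13e-05 for AT1G61520.2 and 0.000707 for AT1G61520.3). The gene had 405 ± 31.7 TPM at 48 h SL and 7.67 ± 2.60 TPM at 12 h SL, with 185 to 417 reads in the seed libraries.

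LHCA1 is another photosystem I antenna protein. Its isoform AT3G54890.1, with 726 coding bases, counts as intron-keeping because 2 stretches of its exons are removed as introns in other listed isoforms. It made up almost all of the gene in the seedlings, at 99.5%, 98.7% and 99.0%, against 89.8%, 81.0% and 47.7% in the 12 h SL libraries. The lowest share belonged to replicate 3, with 103 reads of the gene. On the log2 ratio scale the change was 5.18 with that library (adjusted p = 0.00151) and 4.33 without it. The LHCA1 call was lost on the arcsine scale (limma adjusted p = 0.0188). PORB, which makes chlorophyllide in light, had 30.4% ± 2.82 of AT4G27440.2 at 48 h SL and 6.45% ± 6.64 at 12 h SL (adjusted p = 0.00731). Its call was lost with all 30 libraries (0.0209) and without any 1 library other than 12 h SL replicate 3 (0.0144 to 0.0332). Its isoforms have the same coding length of 1206 bases.

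Of 11 hormone and seed regulator genes tested 4 were called (ABI2, ABF2, ABF4 and HAB1), beside 20.8% of all genes, with a median absolute change of 7.91 points beside 6.46 over all isoforms tested. ABI2 (chr5:23087122-23089631) is a protein phosphatase that holds back abscisic acid signalling. AT5G57050.1 had shares of 78.4%, 83.0% and 76.5% at 48 h SL and 47.0%, 52.5% and 38.1% at 12 h SL, and AT5G57050.2 had 11.7%, 12.9% and 18.4% at 48 h SL and 34.3%, 39.1% and 37.4% at 12 h SL. The groups did not overlap in either (adjusted p = 0.00245 and 0.00369), at 38 to 208 reads in the seed libraries. The call of AT5G57050.1 was lost with all 30 libraries (0.0244) and without 12 h SL replicate 1 or 48 h SL replicate 1 or 2 (0.0103 to 0.0147). ABF4, a transcription factor of abscisic acid responses, lost AT3G19290.2, with 1.41% ± 0.0800 at 48 h SL and 15.9% ± 2.53 at 12 h SL (adjusted p = 0.000342), where other genes cover 81.8% of the span.

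Isoforms that keep an intron had lower shares in the seedling on average. The labels name both a total RNA library kit and a selection for polyadenylated RNA, and without such a selection unspliced precursors would count toward these isoforms, a part that was not tested. Of 4869 intron-keeping isoforms tested, 159 rose (3.27%, against 6.21% of all isoforms) and 535 fell (11.0%, against 7.58%), and their median change was -2.61 points. The other 11980 isoforms had 888 rises and 742 falls, with a median change of 0.56 points. Most of the falls, 370 of 535, were in genes higher at the gene level at 48 h SL, where 68 rose. Over all isoforms, 767 of 1277 falls were also in such genes, and 520 isoforms rose there. In genes lower at the gene level 33 rose and 44 fell, against 186 and 164 of all isoforms. In genes not called at that level 58 rose and 116 fell, against 332 and 336. In genes with 10 TPM or more at both time points 52 rose and 90 fell, with a median change of -1.32 points. Without 12 h SL replicate 3 the numbers were 210 and 599. Leaving out 48 h SL replicate 1, 2 or 3 gave 40 and 145, 38 and 120, and 44 and 135 for rises and falls, and leaving out 12 h SL replicate 1 or 2 gave 66 and 218, and 95 and 335.

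Averaged over 4194 genes with an intron-keeping isoform, these isoforms took 28.4%, 28.4% and 28.2% of a gene's TPM in the 48 h SL libraries and 30.5%, 30.8% and 32.4% in the 12 h SL libraries. Every seedling library was lower (difference -2.92 points, exact permutation test, two-sided, p = 0.1, the smallest value that 3 against 3 allows). The difference was -2.33 points without 12 h SL replicate 3 and -1.85 in genes of at least 5 TPM. With genes weighted by their TPM it was -0.184 points (exact permutation test, p = 0.7). The median effective number of isoforms per gene, a diversity measure from Shannon entropy, was 1.85 in each of the 48 h SL libraries and 1.88, 1.88 and 1.94 in the 12 h SL libraries. The difference of -0.0502 became -0.0279 without 12 h SL replicate 3.

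Some of the introns concerned lie between coding exons and show how the isoforms differ. The sequences below are those of the sense strand from the TAIR10.1 assembly in RefSeq, 5′ to 3′, and each intron runs with its gene on the plus strand. In the PHYB intron (chr2:8143520-8143895, 376 bases, the first 130 shown), the EMB1467 intron (chr5:14900349-14900434) and the JMJD5 intron (chr3:7278078-7278175) the capitals mark the stop codon that ends the coding sequence of the isoform keeping the intron. In the ABI2 intron (chr5:23087802-23087921) and the DAYSLEEPER intron (chr3:14321870-14321935) the capitals mark the first and last 2 bases, and the reading frame continues through.
PHYB: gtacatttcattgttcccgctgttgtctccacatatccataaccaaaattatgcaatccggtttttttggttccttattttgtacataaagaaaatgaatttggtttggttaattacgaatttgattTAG
EMB1467: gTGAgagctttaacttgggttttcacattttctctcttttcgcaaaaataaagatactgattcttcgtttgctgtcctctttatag
JMJD5: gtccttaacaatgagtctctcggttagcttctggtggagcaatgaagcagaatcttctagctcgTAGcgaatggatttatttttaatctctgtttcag
ABI2: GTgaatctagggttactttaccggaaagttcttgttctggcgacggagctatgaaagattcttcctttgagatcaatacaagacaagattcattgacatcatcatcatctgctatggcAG
DAYSLEEPER: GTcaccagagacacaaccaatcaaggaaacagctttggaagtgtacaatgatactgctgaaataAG

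The PHYB intron is the last of the gene, and AT2G18790.2 has 3393 coding bases against 3519 in AT2G18790.1, whose share was 94.2% at 48 h SL and 79.6% at 12 h SL. In JMJD5 the stop codon ends at base 67 of the 98-base intron, which AT3G20810.1 and AT3G20810.2 keep. Their coding sequences, of 1257 and 1290 bases, are nevertheless longer than the 1197 bases of the spliced AT3G20810.3, whose share rose. The mean shares of AT3G20810.1 and AT3G20810.2 were 35.3% and 15.6% at 48 h SL, against 51.3% and 32.5% at 12 h SL. Neither was called (limma adjusted p = 0.119 and 0.0744), and the libraries of AT3G20810.1 overlapped between the time points. The ABI2 intron of 120 bases and the DAYSLEEPER intron of 66 bases are multiples of 3 in length. AT5G57050.1 and AT3G42170.1, which keep these introns, rose. Their coding sequences are longer than those of the spliced AT5G57050.2 and AT3G42170.2, with 1272 against 1152 bases in ABI2 and 2091 against 2025 bases in DAYSLEEPER. AT5G57050.3 also keeps the ABI2 intron and has only 939 coding bases. Its mean share was 6.37% at 48 h SL against 17.2% at 12 h SL, without a call (limma adjusted p = 0.0322).

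**Figure D3:**
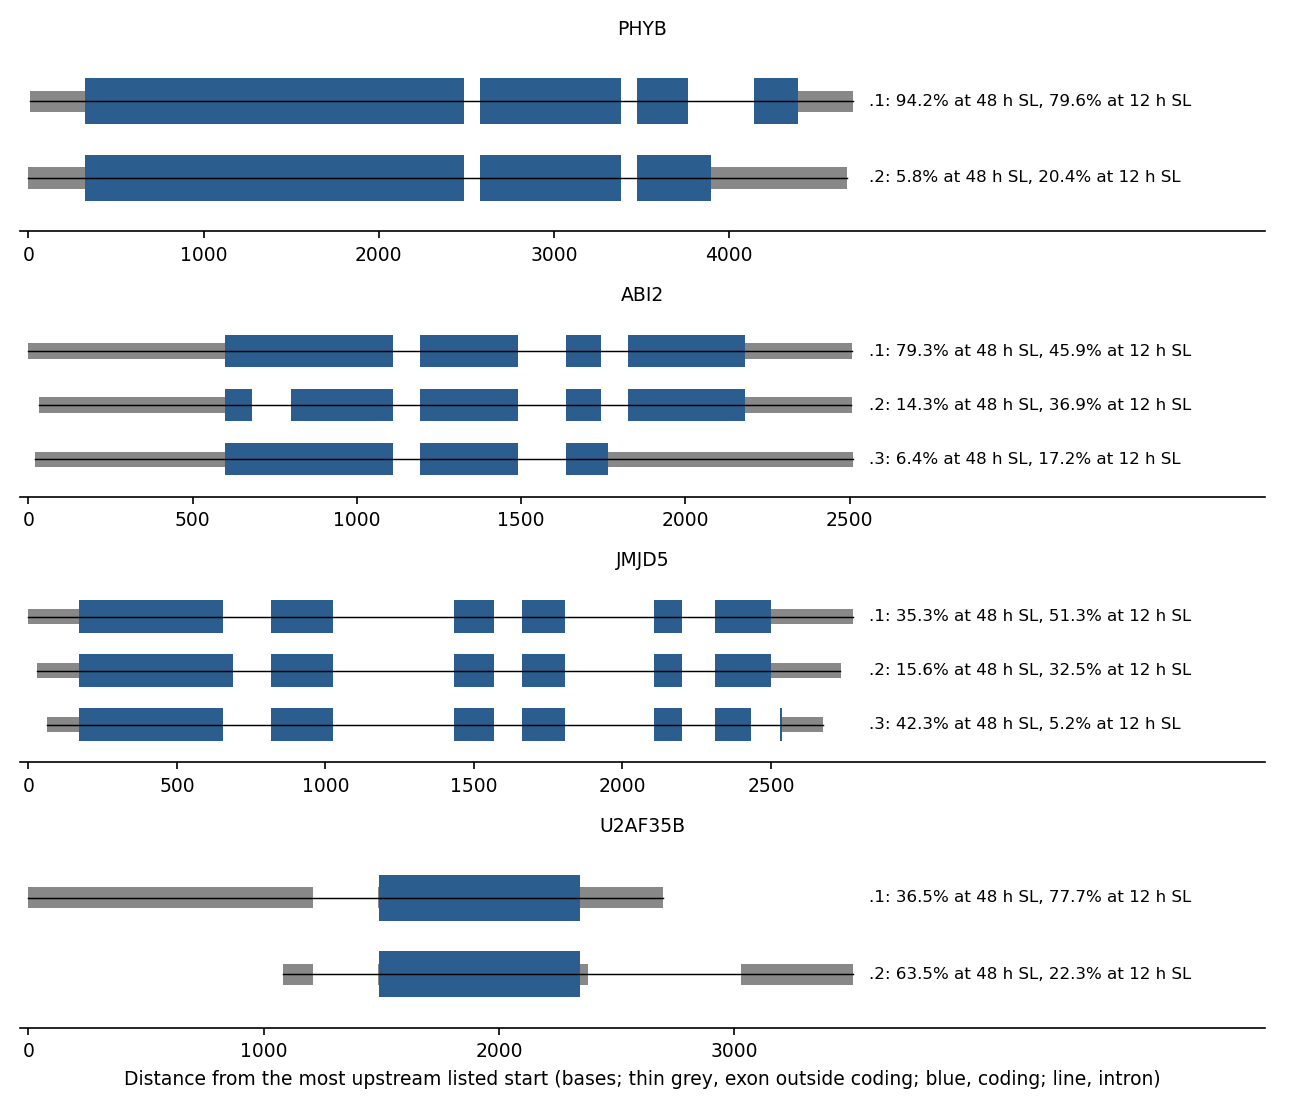
Exons of the isoforms with a mean share of at least 5% in PHYB, ABI2, JMJD5 and U2AF35B, drawn by distance in bases from the most upstream start, with coding parts in blue, other exon parts in grey and introns as lines. Mean shares at 48 h SL and 12 h SL stand beside each isoform, for example 5.79% and 20.4% for PHYB isoform 2, which keeps the last intron.

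Among abundant genes the largest falls of an intron-keeping isoform were in Tudor1, EMB1467 and MAC3B. Tudor1 (chr5:2319994-2325535) is an RNA-binding protein of stress granules that stabilises mRNAs. AT5G07350.1 had shares of 26.0%, 25.7% and 29.4% at 48 h SL and 85.3%, 77.4% and 51.8% at 12 h SL, with replicate 3 again the nearest to the seedlings (log2 ratio change -2.88, SE 0.52, adjusted p = 0.00523). Without that library the change was -3.55 (adjusted p = 0.000199), and leaving out any other ended the call (adjusted p 0.0129 to 0.0246). The Tudor1 call was also lost with all 30 libraries (0.0633). EMB1467 (chr5:14897329-14900693), a subunit of mitochondrial complex I, had AT5G37510.1 at 55.3%, 53.0% and 58.6% at 48 h SL and at 98.8%, 98.3% and 89.0% at 12 h SL (log2 ratio change -4.47, SE 0.65, adjusted p = 0.00219). Its stop codon starts at the second base of the kept intron, and the coding sequence has 2238 bases against 2247 in the spliced AT5G37510.2. MAC3B, a ubiquitin ligase that is part of the spliceosome-associated MOS4 complex, had AT2G33340.1 at 10.2% ± 3.25 at 48 h SL and at 48.7% ± 16.2 at 12 h SL (SD, n = 3 each, adjusted p = 0.00267). The EMB1467 call was lost without each 48 h SL replicate (0.0102 to 0.0132), and that of MAC3B without 12 h SL replicate 1 or 48 h SL replicate 2 or 3 (0.0113 to 0.0142).

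The largest rises were those of AT1G54385.2, of AT1G28350.2 in a nucleotidylyl transferase family gene and of AT3G42170.1 in DAYSLEEPER. AT1G28350.2 had 67.3%, 63.2% and 48.5% at 48 h SL and 16.4%, 19.1% and 17.2% at 12 h SL (log2 ratio change 2.75, SE 0.33, adjusted p = 0.00101). DAYSLEEPER (chr3:14320943-14324069) is derived from a hAT transposase and is needed for plant growth. AT3G42170.1 had 93.8%, 95.1% and 93.8% at 48 h SL and 56.0%, 43.8% and 74.5% at 12 h SL. The seed libraries were more variable than the seedling libraries but lay below them (log2 ratio change of the spliced AT3G42170.2 -3.43, SE 0.44, adjusted p = 0.00137, and 0.0309 with all 30 libraries).

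The isoform whose share rose most in a gene was then compared with the one that fell most. In the 1337 called genes the rising isoform had the longer coding sequence in 646 (48.3%) and the shorter in 302 (22.6%), against 44.1% and 25.4% over 6429 tested genes with annotated pairs. It kept fewer introns in 433 called genes and more in 141 (32.4% and 10.5%, against 27.5% and 15.2% of tested genes). The rising transcript was the shorter in 815 (61.0%, against 54.0%), and it ended at least 50 bases further upstream in 377 and further downstream in 197 (28.2% and 14.7%, against 24.0% and 19.8%). At the 5′ end it started at least 50 bases further upstream in 421 and further downstream in 298, close to the tested genes (31.5% and 22.3%, against 31.1% and 20.6%). Coding sequences were identical in 374 pairs, against 1898 of the 6429 (29.5%). Among the 841 called genes that overlap no other gene, the rising isoform had the longer coding sequence in 434 and the shorter in 165, against 1906 and 1040 of 4209 such genes tested. In called genes of 10 TPM or more at both time points the numbers were 164 and 103 of 390, close to the 782 and 513 of 1977 tested genes of that level. No test was made of these shares. Without 48 h SL replicate 1, 2 or 3 the rising isoform had the longer coding sequence in 204, 180 and 192 called genes and the shorter in 106, 97 and 115. Without 12 h SL replicate 1 these were 310 and 159.

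**Figure D4:**
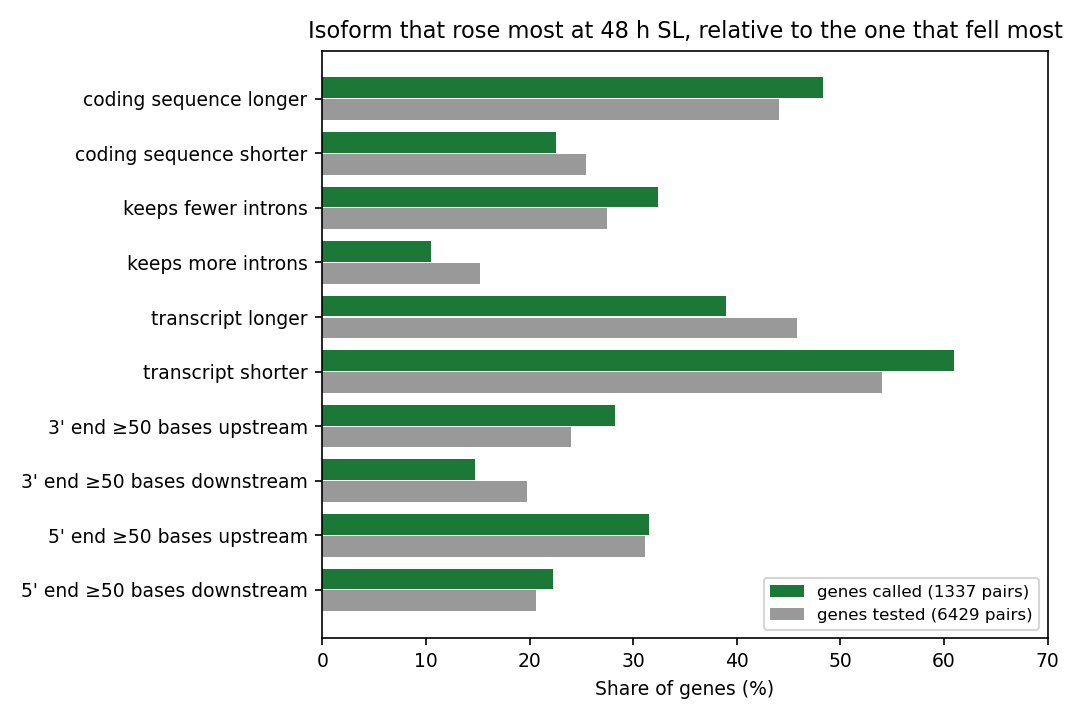
Percentage of genes in which the isoform that rose most at 48 h SL differed as named from the isoform that fell most, for 1337 called genes (green) and 6429 tested genes (grey). The longest pair of bars is that for a shorter rising transcript, at 61.0% and 54.0%.

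In 5518 genes whose isoforms differ in coding length, the isoforms with the longest coding sequence took on average 53.4%, 53.6% and 53.5% of the TPM at 48 h SL and 50.8%, 50.9% and 50.5% at 12 h SL. All seedling libraries were higher (difference 2.79 points, exact permutation test, two-sided, p = 0.1), and with genes weighted by TPM the difference was 2.47 points.

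Called isoforms were followed over the other time points. For the 1832 isoforms called with a change of at least 10 points, the mean share at each other time point was set against those of both time points. It was nearer to 48 h SL for 64.0% of these isoforms at H and for 49.1% in dry seed (0 h). After 1, 12 and 48 h of stratification the percentages were 19.9%, 16.3% and 14.2%, and after 1, 6 and 24 h of light they were 9.06%, 4.69% and 42.7%. Since libraries of both time points had selected these isoforms, these percentages are a description. AT1G79520.1 had mean shares of 19.1% at H, 95.5% at 48 h S, 88.3% at 12 h SL, 43.2% at 24 h SL and 20.2% at 48 h SL. In SOX the means at H and 48 h SL were also alike, with AT3G01910.1 at 86.7% at H, 21.1% at 48 h S, 41.0% at 12 h SL, 56.2% at 24 h SL and 86.7% at 48 h SL. PRIN2 was different, with 98.4% of AT1G10522.1 at H, 99.6% at 48 h S, 97.3% at 12 h SL, 35.4% at 24 h SL and 41.2% at 48 h SL. The 24 h SL means cover unlike libraries, with SDs of 11.5 points for AT1G79520.1, 33.0 for AT3G01910.1 and 18.5 for AT1G10522.1. Replicate 2 of 24 h SL stood apart in the mean share of isoforms with the longest coding sequence, at 49.3% against 52.9% and 53.0%.

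**Figure D5:**
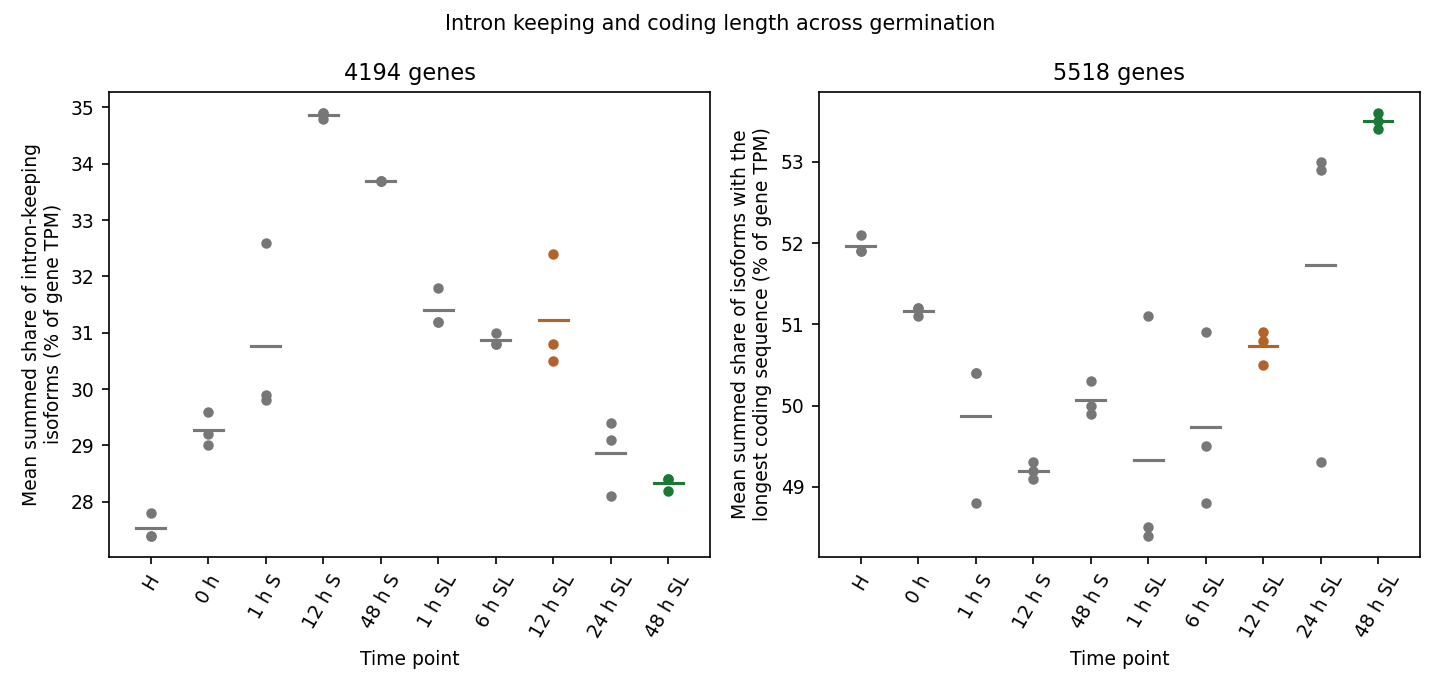
Mean summed share of intron-keeping isoforms over 4194 genes (left) and of isoforms with the longest coding sequence over 5518 genes (right), in percent of the gene's TPM, at 10 time points, with a point for each of 3 libraries and a line for their mean (green, 48 h SL; brown, 12 h SL; grey, the others). Intron-keeping isoforms are at 27.4% to 27.8% at H, 34.8% to 34.9% at 12 h S and 28.2% to 28.4% at 48 h SL. The vertical axes do not start at 0.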

How the data were processed

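The 6 libraries of 48 h SL and 12 h SL were the samples compared, and the other 24 served as time points and in an alternative. The libraries were unstranded. Per the labels the authors trimmed reads with Trim Galore 0.4.2 and deposited gene counts from HISAT2 2.0.5 and featureCounts 1.5.1. The deposited isoform signal, labelled TPM, was made by the authors with Salmon 0.7.2 and sleuth 0.28.1 and is divided by a library size factor. This factor cancels in shares, but not in the TPM thresholds or in the ratios tested, to which 0.1 TPM was added. These isoform values are estimates without a stated error.

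Log2 ratios of isoforms were tested with limma 3.58.1 (trend on gene level, Benjamini-Hochberg over all 16849 isoforms, call at adjusted p below 0.01). Gene counts were tested with edgeR 4.0.16 over 30 libraries, in R 4.3.3. Tables used pandas 2.3.3. A kept intron is one that another listed isoform removes within an exon of the isoform, from the RefSeq annotation, to which 99.96% of isoforms matched. Named genes are the 10 largest changes and the 3 largest rises and falls of intron-keeping isoforms in genes of at least 10 TPM at both time points, the 6 most abundant switches, up to 3 per list, and the examples of the study. For the 10 largest changes the libraries of the time points also had to be without overlap. Members and lists were chosen with earlier results of these data known, and the measure of longest coding sequence was added after the data were seen. Scripts were tested on simulated data with 200 changed isoforms. Alternatives varied the pseudocount, filters, scale, samples and replicate.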

Additional observations from a re-analysis of the deposited data

How the results depend on the processing

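With a pseudocount of 1 TPM, 2345 genes (4508 isoforms) were called for isoform use, and with 0.01 TPM 1054 genes (1765 isoforms). Keeping genes of at least 5 TPM, which tests fewer genes, left 567 genes called, 467 with a change of at least 10 points and 127 with a switch. Leaving out 1 library at a time gave 378 to 1659 genes called, 328 to 1325 with a change of at least 10 points and 96 to 449 switches. The lowest counts were those without 48 h SL replicate 2 and the highest those without 12 h SL replicate 3. The intron-keeping difference was -1.85 points in genes of at least 5 TPM and -0.184 with genes weighted by TPM. Isoform diversity weighted by TPM had the opposite sign, with a difference of 0.00346. The difference in the share of isoforms with the longest coding sequence was 1.94 points in genes of at least 5 TPM, 3.28 among isoforms of at least 5% and 2.47 with weights. The cause was not tested. With all 30 libraries 2354 isoforms were called, 1539 of them shared with the 2324, and on the arcsine scale 1629, with 1499 shared. Of the 2324 calls, 1 changed sign, when isoforms of the same intron chain were summed, an alternative chosen after seeing the data.

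Replicates of the same number did not deviate together in isoform use (correlations 0.04, -0.02 and -0.04). These values cannot tell whether samples of the same number were collected or processed together. With a replicate block 930 genes were called, 784 with a change of at least 10 points and 230 with a switch, and 15814 genes at the gene level, while the intron-keeping difference stayed -2.92 and that of diversity -0.0502.

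The deposited isoform values carry no error of their own, and the part of read depth in the calls was not tested. In the named genes, of 228 values without 1 library, 79 kept the direction but lost the call and none changed direction.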
